A study of Arabidopsis thaliana with 8 samples.

Results

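The response of wild-type (WT) Arabidopsis thaliana roots to iron deficiency was described across all 22746 probe sets of an Affymetrix array that are not control probe sets. The 4 arrays compared were the 2 WT iron-deficient and the 2 WT iron-sufficient ones, out of 8 arrays in the series. Both groups grew for 14 days on Gamborg medium and then spent 3 days on an agar medium. The iron-sufficient (+Fe) medium held 50 µM Fe(III)-EDTA. The iron-deficient (-Fe) medium held 300 µM ferrozine, a chelator of ferrous iron, in place of it, so withholding of iron and presence of the chelator cannot be told apart. The other 4 arrays were of fit plants, mutated in the transcription factor gene FIT, in the same 2 conditions. The labels name neither the accession of the WT plants nor the allele of fit, and do not say how many plants made up a sample. They call the 2 samples of each group biological replicates.

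Plants other than grasses take up iron by acidifying the soil around the root, reducing ferric iron at the surface of the epidermis and importing the ferrous ion. Roots also secrete coumarins, phenolic compounds that dissolve and reduce iron oxides. A cascade of basic helix-loop-helix (bHLH) transcription factors switches these functions on when iron runs short. In it, subgroup IVc factors such as ILR3 act on the genes of subgroup Ib, which includes BHLH101, and subgroup Ib factors pair with FIT. Hemerythrin-domain ubiquitin ligases of the BRUTUS family hold the cascade back, and the small IRON MAN peptides bind and restrain those ligases.

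Values below are log2 signal intensities of the deposited RMA values, 1 probe set at a time, and the order of different probe sets by signal is not an order of transcript level. Calls were made where a limma fit over all 8 arrays gave an adjusted p below 0.05. The WT -Fe replicate 2 array stood apart from the other 3 WT arrays. Its 3' to 5' signal ratio for the GAPDH control transcript was 4.14, against 0.872 on -Fe replicate 1 and 0.981 and 1.21 on the +Fe arrays. The geometric mean over the actin, GAPDH and ubiquitin controls was 4.78 against 2.15 to 2.74. With -Fe replicate 1 as the only iron-deficient WT array, 41 probe sets were called, and the log2 fold changes of the called probe sets named here moved by at most 0.49. The 2 WT -Fe arrays correlated at r = 0.977 across probe sets and the 2 WT +Fe arrays at 0.990. Between a WT -Fe and a WT +Fe array r ran from 0.972 to 0.983, a range that holds the value of the 2 -Fe arrays. None of the 12 root tissue markers listed for a check of the tissue had a probe set naming it alone, so the label of root was not checked by them. The shoot photosynthesis genes RCA, LHCB4.1 and PORB, 3 of 10 listed, had mean log2 signals of 6.84 to 8.14 under sufficient iron and of 6.21 to 7.80 under deficiency.

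Far more of the calls ran upward than downward. At an unadjusted limma p under 0.05 the counts were closer, with 874 probe sets higher and 764 lower. Of the 22746 probe sets, 81 (0.356%) were called higher in iron-deficient WT roots and 17 (0.0747%) were called lower, together 0.431%. Their median log2 fold changes were 2.13 and -1.86, beside -0.01 over all probe sets. A change of at least 16-fold was measured upward in 14 probe sets, of which 13 were called, and downward in 2, both called. Each array weighed on the count: 32 were called without +Fe replicate 1, 26 without +Fe replicate 2, 33 without -Fe replicate 1 and 41 without -Fe replicate 2, with the lone array left assumed to vary like the other groups. Of the 98 called probe sets, 46 named 1 gene, and these stood for 45 genes. In whole roots, a change in the number of cells that express a gene and a change in its RNA per cell cannot be told apart.

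**Figure D1:**
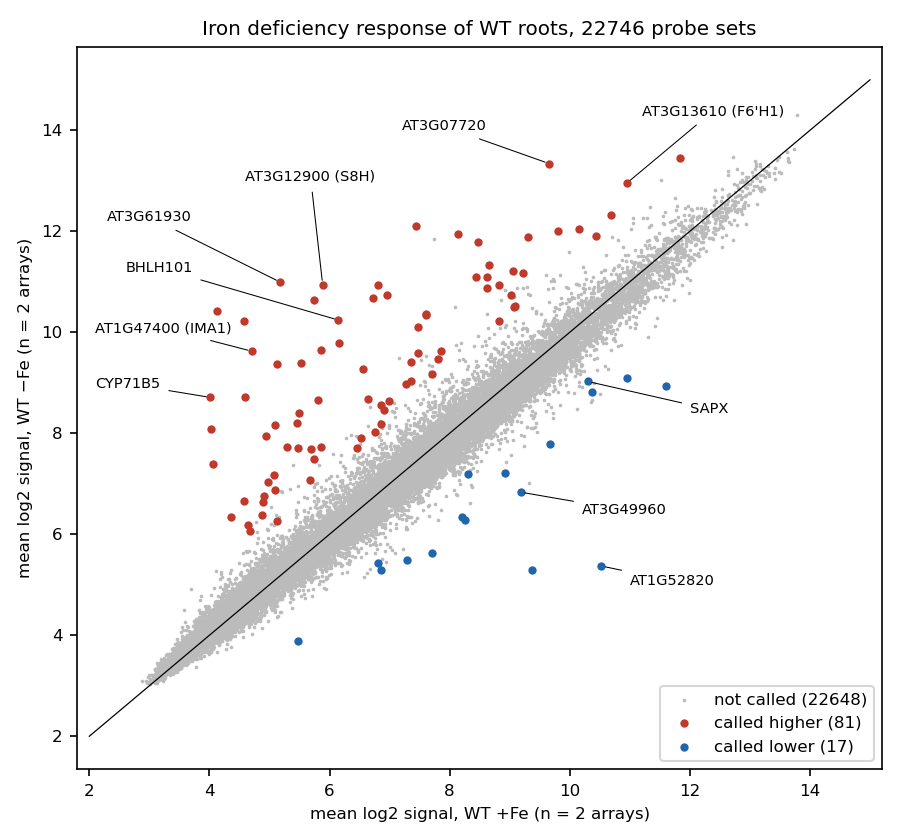
Mean log2 signal of each probe set in the 2 WT +Fe arrays (x axis) and the 2 WT -Fe arrays (y axis), with the line of equal signal. The 81 probe sets called higher lie above the line at iron-sufficient signals from 4.01 to 11.8, while the 17 called lower lie below it, with AT1G52820 farthest from it.

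The genes called higher started from mean log2 signals of 4.01 to 11.8. Under sufficient iron, 12 of the 81 lay among the dimmest 25% of probe sets (log2 signal below 4.88), and their median was 6.64. Under deficiency the median was 9.41, and 54 of the 81 lay among the brightest 25% (above 8.40). Of the 81, 5 passed from the dimmest 25% to the brightest. The 17 called lower had a median of 8.93 with iron and of 6.34 without, and 1 of them lay among the dimmest 25% under deficiency. In every one of the 98 the 2 groups did not overlap, with a gap of at least 1.002 between the nearest arrays. The 98 were chosen by these same arrays, so the separation is a description and no further support.

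The regulators of the cascade were the list with most called members. Of 24 listed regulators 15 were measured, 5 (33.3%, beside 0.356% of all probe sets) were called higher and none lower. The list was chosen with earlier results of these data known, so this share is a description. The median log2 fold change was 0.38, beside -0.01 over all. IMA1 (AT1G47400), which encodes an IRON MAN peptide, had log2 signals of 4.73 and 4.68 with iron and of 9.42 and 9.83 without. The rise was 30.3-fold (log2 4.92, with an SE of 0.33 and a limma adjusted p of 0.000938). BHLH101 went from 6.08 and 6.21 to 9.97 and 10.51, a 17.1-fold rise (log2 4.09, SE 0.22, limma adjusted p = 0.000192). With iron, IMA1 lay among the dimmest 25% of probe sets and BHLH101 did not. Without iron both lay among the brightest 25%.

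BTSL1 and BTSL2, both called, encode ubiquitin ligases of the BRUTUS family. BTSL1 (AT1G74770) was measured by a pair of probe sets, and both were called. The brighter one read 8.84 and 8.48 with iron and 11.49 and 11.18 without, 6.40-fold higher (log2 2.68, SE 0.28). The dimmer one read 5.49 and 5.11 with iron and 7.95 and 7.53 without, at log2 2.44 (SE 0.24), so the 2 probe sets differed by less than the SE of either. BTSL2 (AT1G18910) was 3.27-fold higher (log2 1.71, SE 0.17), with 9.0 and 9.05 against 10.82 and 10.65. PYE, a bHLH repressor of iron homeostasis genes, had 6.46 and 6.57 against 7.92 and 7.90, a 2.63-fold rise (log2 1.39, SE 0.17, limma adjusted p = 0.0153).

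The other 10 regulators measured were not called. The subgroup IVc factors ILR3 and bHLH115 had log2 fold changes of 0.53 (SE 0.19) and 0.64 (SE 0.22). The limma adjusted p was 0.593 for ILR3 and 0.560 for bHLH115. bHLH104 had 0.25 (SE 0.19) and bHLH34 had -0.12 (SE 0.21). bHLH121, also named URI, an activator of the cascade, had 0.30 (SE 0.25). The subgroup IVa factors, which are known to promote the breakdown of FIT protein, had 0.38 (BHLH18, AT2G22750, SE 0.21), 0.38 (BHLH19, AT2G22760, SE 0.25), 0.01 (BHLH20, here NAI1, SE 0.21) and -0.01 (BHLH25, AT4G37850, SE 0.17). BHLH18, BHLH19 and BHLH25 lay among the dimmest 25% of probe sets in both WT groups, at mean log2 signals of 3.55 to 4.62. Little can be read from their small changes. For EIN3, a transcription factor of ethylene signalling that stabilises FIT, the value was 0.24 with an SE of 0.44, and its 2 -Fe arrays stood at 10.57 and 9.62. Thus within 1 pathway the measured called members were a peptide, a subgroup Ib factor, 2 ligases and a repressor.

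Coumarin synthesis was the list with the highest median log2 fold change, 2.34 beside -0.01 over all probe sets. Of its 8 members 4 were measured, and 3 of these (75%, beside 0.356%) were called higher. This list too was chosen with earlier results of these data known, so its share is a description. F6'H1 (AT3G13610), the feruloyl-CoA hydroxylase that opens the pathway, was bright with iron and brighter without, at 11.06 and 10.85 against 13.21 and 12.70 (log2 2.00, SE 0.23, limma adjusted p = 0.0126). S8H (AT3G12900), which turns scopoletin into fraxetin, rose from 5.53 and 6.24 to 11.18 and 10.71, or 33.4-fold (log2 5.06, SE 0.44, limma adjusted p = 0.00314). BGLU42, a beta-glucosidase that releases coumarins from their glucosides, rose 6.36-fold, from 8.27 and 8.60 to 11.34 and 10.86. COSY (AT1G28680), the coumarin synthase, had 9.93 and 9.76 against 10.41 and 10.73, a log2 fold change of 0.72 (SE 0.21, limma adjusted p = 0.446), which was not called. So the enzymes of this short pathway differed widely in size of change, S8H having the largest of the 4. The only measured gene of the 8 listed for the phenylpropanoid trunk that feeds it, HCT, had 0.30 (SE 0.17).

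Of 28 listed metal transporters 5 were measured, and MTP8 was called. MTP8 (AT3G58060), which carries manganese and iron into the vacuole, rose 18.8-fold, with 5.11 and 5.15 against 9.59 and 9.14 (log2 4.24, SE 0.22, limma adjusted p = 0.000189). ZIP9, of the ZIP family of metal importers, read 6.24 and 5.88 with iron and 7.68 and 7.51 without, at a log2 fold change of 1.54 (SE 0.26). Its limma adjusted p was 0.0795, so it was not called. ZIP6 had -0.06 (SE 0.25), and the mitochondrial iron importers MIT1 (AT2G30160) and MIT2 (AT1G07030) had 0.01 (SE 0.24) and -0.37 (SE 0.31). No member of the lists for iron uptake, iron translocation, iron storage or phosphate starvation was named alone by a probe set, so the high-affinity importer IRT1, the reductase FRO2 and the ferritins were not analysed here.

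**Figure D2:**
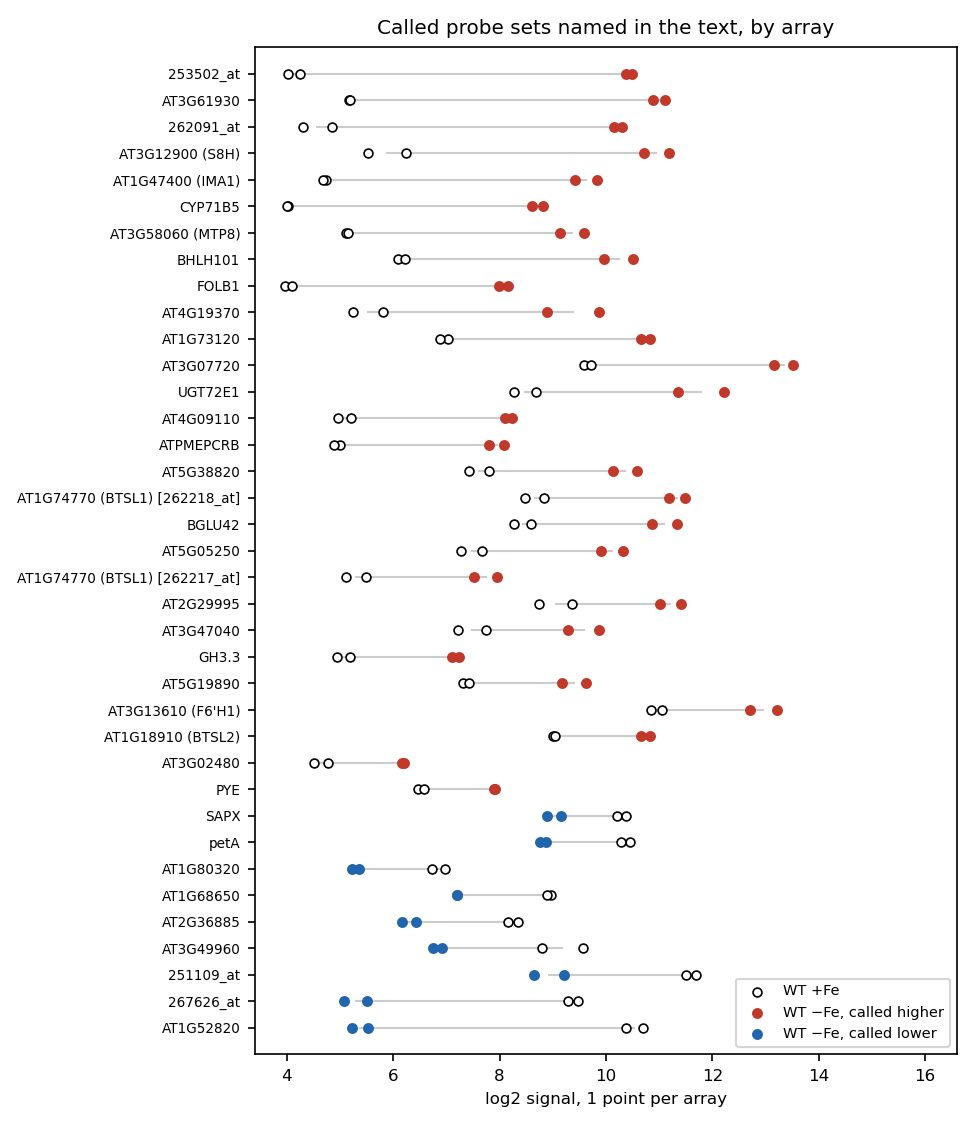
Log2 signal on each WT array (1 point per array) for the 37 called probe sets named in the text, ordered by log2 fold change, with open points for +Fe, filled points for -Fe and a grey line between the group means. The groups are separate in every one, which were chosen by these same arrays. The 2 +Fe points of CYP71B5, AT3G61930, IMA1 and MTP8 lie almost on each other.

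Outside the lists of iron biology, the named gene with the largest rise was AT3G61930, at 56.4-fold (log2 5.82, SE 0.20, limma adjusted p = 3.09e-05). Its arrays read 5.16 and 5.20 with iron and 10.88 and 11.11 without. CYP71B5, a cytochrome P450, rose 25.9-fold, from 4.02 and 4.01 to 8.61 and 8.81. FOLB1, an aldolase of folate synthesis, rose 16.5-fold, from 3.97 and 4.097 to 8.17 and 7.99. In these 3 genes the SD between arrays was 0.16 or less in both groups.

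AT3G07720, a protein with kelch repeats, was already bright with iron. It stood at 9.59 and 9.72 with iron and at 13.52 and 13.17 without, 12.9-fold higher (log2 3.69, SE 0.27). UGT72E1, a glucosyltransferase that acts on phenylpropanoid aldehydes, went from 8.69 and 8.27 to 12.22 and 11.35 (log2 3.31, SE 0.41). Its -Fe arrays differed by more than those of most named genes, as did those of AT4G19370, at 9.87 and 8.90 against 5.80 and 5.23 with iron (log2 3.87, SE 0.45). AT1G73120 rose 13.7-fold, from 7.04 and 6.88 to 10.83 and 10.65.

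Among enzymes and proteins of the cell wall, membrane and protein turnover, ATPMEPCRB, a pectin methylesterase, rose 8.01-fold (log2 3.00, SE 0.22). AT4G09110, of a family of RING ubiquitin ligases, rose 8.46-fold (log2 3.08, SE 0.26). AT5G38820, of an amino acid transporter family, rose 6.69-fold (log2 2.74, SE 0.23). AT3G47040, a glycosyl hydrolase, had a log2 fold change of 2.11 (SE 0.29). AT5G05250 and AT2G29995, for which no function is given here, had 2.64 (SE 0.27) and 2.16 (SE 0.25). Singled out after their values were seen, GH3.3, which conjugates auxin to amino acids, was 4.28-fold higher (log2 2.096, SE 0.24), and AT5G19890, a class III peroxidase, was 4.13-fold higher (log2 2.04, SE 0.26). The 13 other called probe sets that name a gene all rose, with log2 fold changes of 1.40 to 2.09.

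Of the 52 called probe sets with no gene name here, 42 were higher and 10 lower. The highest of all changes was that of 253502_at, which read 4.24 and 4.02 with iron and 10.49 and 10.37 without, 78.7-fold higher (log2 6.30, SE 0.18, limma adjusted p = 1.78e-05). Next among the unnamed came 262091_at, 50.1-fold higher. At the other end, 267626_at was 16.9-fold lower and 251109_at was 6.37-fold lower, the latter from 11.51 and 11.70 to 9.22 and 8.65.

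Genes that fell were fewer, and 7 of the 17 had a name. Each of the 7 lost its call under some of the alternatives given below, and all kept their direction. With only the 4 WT arrays in the fit, 8 probe sets were called lower. AT1G52820, a dioxygenase of the class that uses 2-oxoglutarate and ferrous iron, dropped from among the brighter probe sets to among the dimmer ones. Its arrays read 10.69 and 10.37 with iron and 5.52 and 5.22 without, 35.7-fold lower (log2 -5.16, SE 0.47, limma adjusted p = 0.00383). AT1G80320, a dioxygenase of the same class, went from 6.98 and 6.74 to 5.36 and 5.22 (log2 -1.57, SE 0.22). AT3G49960, a class III peroxidase, whose enzymes carry haem, went from 9.57 and 8.79 to 6.92 and 6.74 (log2 -2.35, SE 0.34, limma adjusted p = 0.0381). AT5G19890, of the same peroxidase class, went the other way (log2 2.04, SE 0.26). The dioxygenases were not surveyed as a family here, so the genes that fell do not stand for their classes.

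SAPX, an ascorbate peroxidase of plastids and mitochondria and also a haem enzyme, stood at 10.21 and 10.39 with iron and at 9.16 and 8.89 without, 2.41-fold lower (log2 -1.27, SE 0.18, limma adjusted p = 0.0375). AT1G68650, of a family of membrane proteins that transport calcium and manganese, had 8.96 and 8.89 against 7.21 and 7.20 (log2 -1.73, SE 0.17). AT2G36885 had 8.17 and 8.35 against 6.42 and 6.16 (log2 -1.97, SE 0.21). The seventh was petA, in the plastid genome, described below with its neighbours.

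Of the 8 measured among 29 listed iron-sulfur and haem proteins, SAPX was the 1 called, and the median log2 fold change was -0.29. SIR, the sulfite reductase, which holds a sirohaem and an iron-sulfur cluster, had -1.04 (SE 0.28), with a limma adjusted p of 0.364. SDH2-1 and SDH2-2, iron-sulfur subunits of mitochondrial complex II, had -0.20 (SE 0.22) and -0.45 (SE 0.22). The dihydroxyacid dehydratase DHAD (AT3G23940) had -0.37 (SE 0.26). ISU1, a scaffold for cluster assembly, had 0.19 (SE 0.23), CPNIFS, the plastid cysteine desulfurase, 0.03 (SE 0.20) and TAPX, the thylakoid ascorbate peroxidase, 0.25 (SE 0.16). Thus SAPX and TAPX, both ascorbate peroxidases, read differently, and no test of the difference between them was run.

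Other lists held few measured genes, and none of these was called. AT12CYS-2 (AT5G09570), a small mitochondrial protein induced by stress of that organelle, had the largest value, 1.60 (SE 0.28, limma adjusted p = 0.0900), and the lowest of the 5 mitochondrial stress genes measured was NDB2, an alternative NAD(P)H dehydrogenase, at -0.50 (SE 0.19). UPOX (AT2G21640), a further mitochondrial stress gene, read 5.01 and 4.77 with iron and 5.08 and 6.61 without, so its value of 0.96 (SE 0.60) rested on -Fe replicate 2. ARD4, of the methionine cycle, had 0.32 (SE 0.16) and CCS, the copper chaperone of superoxide dismutase, 0.26 (SE 0.27). Of the expansins of growing root hairs, EXPA7 had 0.45 (SE 0.33) and EXPA18 0.14 (SE 0.31), with overlapping groups. RCA, the activase of Rubisco, had -0.63 (SE 0.17) and LHCB4.1, a chlorophyll-binding protein, -0.34 (SE 0.32). The reference genes TIP41 (AT4G34270) and SAND (AT2G28390) had 0.04 (SE 0.23) and -0.06 (SE 0.17).

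**Figure D3:**
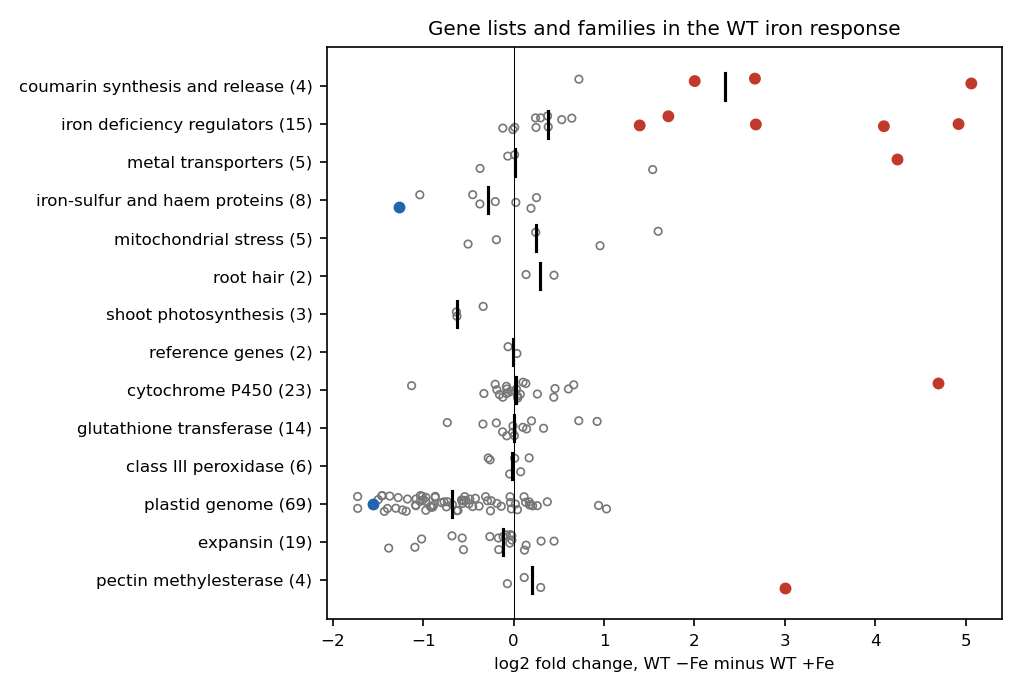
Log2 fold change (x axis, WT -Fe minus WT +Fe) of each measured member of the lists and families with more than 1 member, 1 point per gene, with called genes filled and a black bar at the median. Coumarin synthesis and the iron deficiency regulators hold most called genes, and the plastid genome lies mostly below 0. Among the 23 genes with a P450 symbol, many of them dim, CYP71B5 stands alone.

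In the cytochrome P450 family, CYP71B5 was the 1 called gene of 23 with a P450 symbol, and the family median was 0.03. The next largest was CYP71B29 at 0.67 (SE 0.27), so CYP71B5 was alone among these 23 in its size of change. Many of the 23 were dim. Their median log2 signal on the WT +Fe arrays was 4.85 and 4.76, where the dimmest 25% of probe sets lay below 4.88. A change in those dim members could have been missed. Any P450 gene without such a symbol here was not covered. The lowest, CYP78A9, had -1.13 (SE 0.21) with a limma adjusted p of 0.117. Of 14 glutathione transferases none was called, with values from -0.73 for ATGSTF13 to 0.92 for GSTL3. Of 4 pectin methylesterases ATPMEPCRB was called, and the other 3 lay between -0.07 and 0.30. Of 19 expansins, proteins that loosen the cell wall, none was called, 15 (78.9%, beside 51.4% of all probe sets) were below 0 and the median was -0.12. For 3 (15.8%, beside 0.479%) the fall was at least 2-fold with no overlap of the groups. The lowest was EXPA15, which read 10.85 and 10.44 with iron and 9.48 and 9.05 without (log2 -1.38, SE 0.25, limma adjusted p = 0.0986). Of the 6 class III peroxidases whose synonyms gave the family name none was called, with values from -0.28 to 0.17. AT3G49960 and AT5G19890 have no such synonym and were not among the 6.

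Genes of the plastid genome were mostly lower in iron-deficient WT roots. Of 69 measured, petA, for cytochrome f of the electron transport chain, was called lower (1.45%, beside 0.0747% of all probe sets), reading 10.45 and 10.29 with iron and 8.88 and 8.75 without (log2 -1.56, SE 0.19, limma adjusted p = 0.0153). The median log2 fold change of the 69 was -0.68, and 57 (82.6%) lay below 0, beside 51.4% of all probe sets. For 19 (27.5%, beside 0.479%) the fall was at least 2-fold and the groups did not overlap. Many of these genes are transcribed together, so they are not independent of each other.

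By array, the median log2 signal of the 69 was 8.51 and 7.97 with iron and 7.43 and 7.13 without. The 2 +Fe arrays thus differed by about as much as the nearest arrays of the 2 groups did. Without +Fe replicate 1 the median log2 fold change was -0.44 and without +Fe replicate 2 it was -0.87. With -Fe replicate 1 alone it was -0.74 and with -Fe replicate 2 alone, the array with the high 3' to 5' ratio, it was -0.60. The lowest values were those of psaB, for a core protein of photosystem I, at -1.724 (SE 0.42), and of rpoC2, a subunit of the plastid RNA polymerase, at -1.723 (SE 0.37), and neither was called. The highest, rps14 at 1.03 (SE 0.94) and rpoB at 0.94 (SE 1.01), rested on -Fe replicate 2, where they read 6.78 and 6.83 against 4.52 and 4.05 on replicate 1. The part of RNA quality in these values was not tested. In fit roots the median log2 fold change of the 69 genes was 0.02. Their median log2 signal there was 7.74 and 7.85 with iron and 7.52 and 7.82 without, the last on the array with the highest 3' to 5' ratio of the series. Both fit +Fe arrays thus lay below both WT +Fe arrays, and the difference between genotypes was not tested for these genes as a set.

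**Figure D4:**
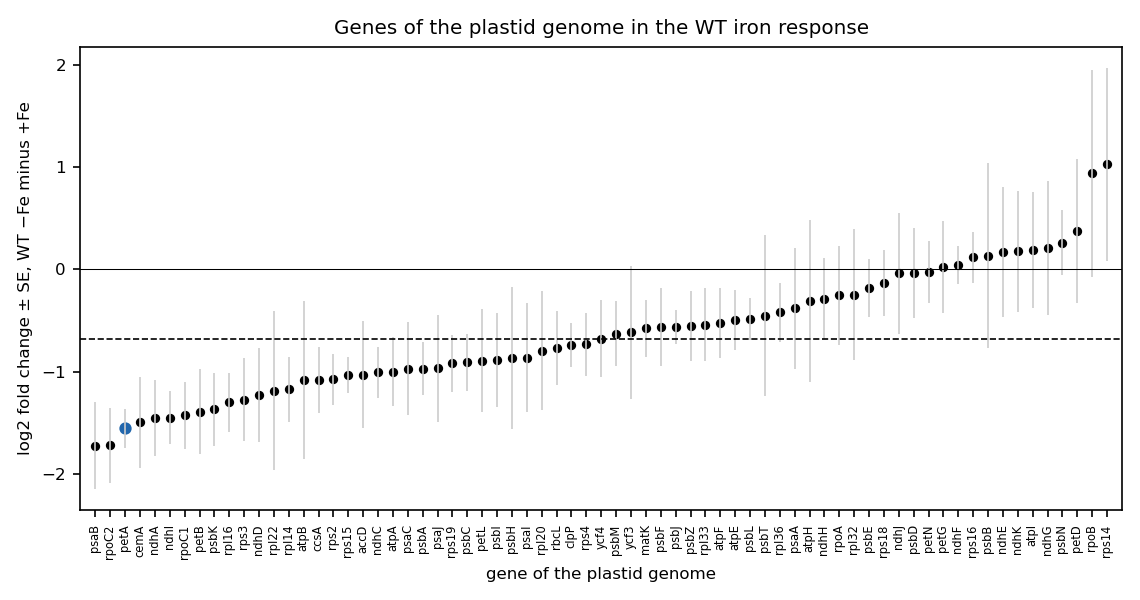
Log2 fold change with its SE (y axis, WT -Fe minus WT +Fe) of the 69 measured genes of the plastid genome, in order of value, with petA, the called gene, in blue and a dashed line at the median of -0.68. Of the 69, 57 lie below 0, and the widest errors belong to the genes at the upper end, such as rpoB and rps14.

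The WT response was set beside that of fit, whose 4 arrays are not shared with it, through the test of the difference between the 2 responses. The fit -Fe replicate 2 array stood farther apart than any other, with a GAPDH 3' to 5' ratio of 11.2 and a mean ratio over the 3 controls of 6.69, against 2.75 on fit -Fe replicate 1. Its part in the values of fit was not tested. Without both this array and WT -Fe replicate 2 the number of WT calls with a called difference was 19. Of the 98 probe sets called in WT, the difference was called for 16, beside 17 (0.0747%) of all probe sets. For 15 of them the rise was smaller in fit. The 98 were chosen on the WT response, which enters the difference, so these counts are a description. FIT itself has no probe set naming it alone here, so the mutant label was not checked by its target. AT3G61930 changed by 5.82 in WT and by -0.64 (SE 0.20) in fit (difference -6.45, SE 0.29, limma adjusted p = 0.000241), and CYP71B5 by 4.70 and 0.03 (difference -4.67, SE 0.24, limma adjusted p = 0.000471). MTP8, FOLB1, AT3G07720, AT4G09110, ATPMEPCRB and AT5G38820 also had called differences, of -4.23 to -2.81. S8H, at 5.06 in WT and 0.38 in fit, had a difference of -4.68 (SE 0.62) with a limma adjusted p of 0.0815.

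The 5 called regulators varied among themselves, and none of their differences was called. PYE changed by 1.39 in both genotypes (difference -0.00, SE 0.24), and IMA1 by 4.92 in WT and 4.14 in fit (difference -0.78, SE 0.47). BHLH101 changed by 4.09 in WT and 2.41 in fit (difference -1.68, SE 0.31). The brighter probe set of BTSL1 changed by 2.68 and 0.86 (difference -1.82, SE 0.40), and BTSL2 by 1.71 and -0.08 (difference -1.79, SE 0.25). With iron, all 5 had higher mean log2 signals in fit than in WT. BHLH101 stood at 9.14 against 6.15, IMA1 at 6.79 against 4.71 and BTSL1 at 10.25 against 8.66. BTSL2 stood at 9.26 against 9.02 and PYE at 6.95 against 6.52. Without iron, fit stood higher for BHLH101 (11.55 against 10.24), IMA1 (10.93 against 9.63) and PYE (8.34 against 7.91). It stood lower for BTSL1 (11.10 against 11.34) and BTSL2 (9.19 against 10.74). These gaps between genotypes were not tested. Outside the regulators, AT1G73120 changed by 3.78 and 2.88 (difference -0.89, SE 0.28) and AT5G05250 by 2.64 and 2.26 (difference -0.37, SE 0.38), and neither difference was called. The response of fit had 30 calls upward (0.132%) and 16 downward (0.0703%). Of the 81 WT calls upward, 17 were among the 30. Of the 17 called lower in WT, 5 were among the 16, and for none was the difference called. The changes of AT1G68650 (-1.73 in WT and -2.09 in fit) and AT2G36885 (-1.97 and -1.99) lay close together. AT3G02480, a late embryogenesis abundant protein singled out after its values were seen, was the 1 called gene with a larger rise in fit, at 1.54 in WT and 4.48 in fit (difference 2.93, SE 0.34, limma adjusted p = 0.0393).

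**Figure D5:**
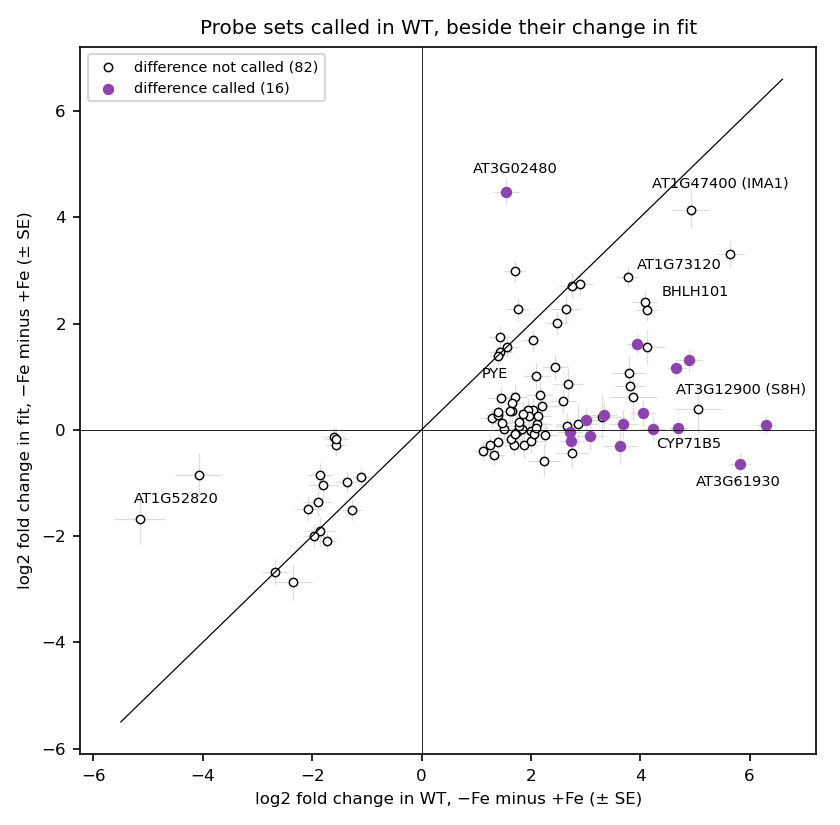
Log2 fold change in WT (x axis) and in fit (y axis) of the 98 probe sets called in WT, with SEs and the line of equal change. The 16 with a called difference (purple) lie along 0 in fit or well below the line, except AT3G02480, which lies above it, and none of the 17 probe sets called lower in WT has a called difference.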

How the data were processed

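Per the labels' protocols, root RNA was biotin-labelled in one amplification cycle, and each sample was hybridised to its own Affymetrix array. Per the submitters' processing notes, the deposited intensity values were made by RMA. They were on the linear scale, between 7.13 and 21060, and the version of RMA is not given in the sources used here. RMA compresses differences between dim probe sets. Log2 was taken of the deposited intensities. The 64 control probe sets were left out, and the other 22746 were tested. The arrays' medians lay between 6.81 and 6.88. Precision is limited by 2 arrays per group. SEs and p-values rest on a spread estimated for each probe set over all 8 arrays, so the fit arrays enter those of the WT response. AT1G52820 had SDs of 0.23 and 0.22 in WT, of 0.69 and 0.97 in fit, and a WT SE of 0.47.

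Group means of all 8 arrays were fitted by lmFit and eBayes of limma 3.58.1 under R 4.3.3 (4 residual and 3.82 prior degrees of freedom), adjusted by Benjamini-Hochberg over all 22746. The fit was tested on simulated data. Errors are SEs of this fit or SDs of 2 arrays.

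Probe sets were named through the platform table and RefSeq's TAIR10.1 gene table, used for names only: 13513 named 1 gene, 503 several and 8730 none. Symbols are RefSeq's, and common names beside a locus come from the gene lists. Of 202 members of 16 gene lists, 47 were measured, by the brightest probe set naming the locus alone. Families were matched by symbol, synonym or plastid location, and 4 of 11 (dioxygenases, mitochondrial genome, ribosomal proteins and ABC transporters) matched no probe set that names 1 gene. The rule for named genes took the 20 highest and 15 lowest called probe sets with 1 gene name, all called list members, all measured members of lists of iron biology, the extremes of other lists, up to 4 called members per family and 2 unnamed probe sets per direction. Genes named beyond it, such as family extremes, were chosen after their values were seen. The members and lists were chosen with earlier results of these data known. No sequences are shown.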

Additional observations from a re-analysis of the deposited data

Results flagged for a closer look

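The iron response differed between the genotypes, by the limma test of the difference of responses (fit minus WT, log2, adjusted over 22746 probe sets), for 10 of the called probe sets named here. The rise was smaller in fit for 253502_at (-6.20), AT3G61930 (-6.45), CYP71B5 (-4.67), MTP8 (AT3G58060, -4.23), FOLB1 (-3.74), AT3G07720 (-3.57), AT4G09110 (-3.19), AT5G38820 (-2.95) and ATPMEPCRB (-2.81). For AT3G02480 the rise was larger in fit (2.93). With iron, AT3G07720 already stood higher in fit, at a mean log2 signal of 11.55 against 9.65 in WT. So did AT3G02480, at 7.05 against 4.64. Without 1 of the 4 WT arrays in turn, the number of WT calls with a called difference fell from 16 to between 3 and 6.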

How the results depend on the processing

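All 98 calls kept their direction under each of 16 alternatives that tested them, and 14 of the 37 called probe sets named here stayed called under all. The number called was 441 with a covariate for the ratio of 3' to 5' signal, 144 with array weights, 69 from the 4 WT arrays alone and 44 over probe sets naming 1 gene, where by construction fewer were tested. With the replicate number as a replicate block it was 201. Deviations of same-numbered replicates correlated at 0.131 to 0.659 over the 6 pairs of groups, the highest being that of the 2 -Fe groups. In every group replicate 2 had the higher mean 3' to 5' ratio. What lies behind these correlations was not tested. The labels do not pair the samples, and each group has 2. Leaving out 1 WT array gave 26 to 41. The count of WT calls with a called difference from fit was 57 with that covariate, 35 with the replicate block, 9 with 16 added to the intensities, 8 over probe sets naming 1 gene and 3 to 6 without 1 array. Leaving out both arrays of high ratio, chosen after seeing the data, gave 128 calls. The other alternatives (a fold limit, 16 added, median centring, quantile normalisation, a trended robust prior, without the dimmest 25%) gave 84 to 106. AT12CYS-2 and ZIP9 were called in 3 and 5 alternatives. Signs of 10 uncalled genes turned. Over the fits without 1 WT array, log2 fold changes ran from -0.16 to 0.043 for AT2G28390, -0.17 to 0.19 for AT2G30160, -0.16 to 0.24 for AT4G34270, -0.13 to 0.12 for AT4G37850, -0.23 to 0.72 for EIN3, -0.28 to 0.55 for EXPA18, -0.068 to 0.96 for EXPA7, -0.18 to 0.21 for NAI1, -0.32 to 0.19 for ZIP6 and -0.28 to 0.046 for bHLH34. Without both arrays of high ratio AT4G37850 had 0.12 and bHLH34 0.046. With the covariate AT4G37850 had 0.029 and ZIP6 0.012, and with median centring AT4G37850 had 0.027. Their causes were not tested. With 2 arrays per group, changes of the size seen in ILR3 and COSY were not called.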

Other observations

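The 2 iron-deficient WT arrays can be set against each other gene by gene, as a description with no test. Of the 81 probe sets called higher, 56 (69.1%) were brighter on -Fe replicate 1 than on replicate 2, beside 47.5% of all probe sets. Of the 17 called lower, 14 (82.4%) were also brighter there, with a median log2 fold change of -1.72 from replicate 1 alone and -1.93 from replicate 2 alone. Among the 17 called higher in both genotypes, 6 (35.3%) were brighter on replicate 1, and among the 15 with a called smaller rise in fit, 11 (73.3%) were. S8H read 11.18 and 10.71, BGLU42 11.34 and 10.86 and F6'H1 13.21 and 12.70 on replicates 1 and 2. Of the called regulators, BTSL1 read 11.49 and 11.18, BTSL2 10.82 and 10.65 and PYE 7.92 and 7.90, while BHLH101 read 9.97 and 10.51 and IMA1 9.42 and 9.83. Replicate 2 is the array with the high 3' to 5' ratio, whose part in this was not tested.

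Among the probe sets that changed by at least 2-fold and were not called, 157 were higher and 96 lower. With the calls included, 234 (1.03%) were higher and 109 (0.479%) lower by at least 2-fold with no overlap of the WT groups, and 874 were higher and 764 lower at an unadjusted limma p under 0.05. The median SD within a group was 0.19 under deficiency and 0.13 under sufficient iron.

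In the order of protein-coding genes in the RefSeq table, no 2 of the 45 called named genes lay within 5 places of each other. The 52 called probe sets without a name could not be placed. How often 45 other genes would lie so was not computed.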
